A study of Mus musculus with 44 samples.

Results

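Among the genes measured in the left ventricles of 44 mice were those that release arachidonic acid from membranes and turn it into prostaglandins. The set comprises the phospholipases Pla2g5 and Pla2g4a, the cyclooxygenases Ptgs1 and Ptgs2, the prostaglandin synthases Ptgds, Ptges and Ptgis, and the prostaglandin receptor Ptger4. These 8 genes were chosen by name, with earlier results of the same arrays known. No probe set carried the symbol Ptgs1, which is not analysed here, and the other 7 genes were covered by 11 of the 22690 probe sets, or 7 of the 12394 genes measured. Pla2g5, Ptgis and Pla2g4a had 1 probe set, and Ptgds, Ptgs2, Ptges and Ptger4 had 2. For those 4 genes, values are from the probe set with the larger SD over the 44 arrays, a choice that favours sets that differ between groups, and the other set is given beside each call.

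The mice formed 4 groups, with 1 Affymetrix 430A 2.0 array per mouse: 12 PKCe mice given FG-3149, 10 PKCe mice given IgG, 12 FVB mice given FG-3149 and 10 FVB mice given IgG. PKCe mice carry a constitutively active (A159E) rabbit PKCε under the mouse Myh6 promoter, which is active in cardiomyocytes, on the FVB/N background, and FVB mice are nontransgenic FVB/N animals. FG-3149 blocks CTGF, the matricellular protein encoded by Ccn2, and IgG is nonimmune mouse immunoglobulin. Per the labels, mice were assigned at random to antibody or IgG at 3 months of age, received 30 mg/kg in 2 injections per week for 3 months, and were 6 months old when tissue was taken. Females and males numbered 6 and 6, 5 and 5, 6 and 6, and 7 and 3 in the 4 groups as listed. Mouse numbers of the groups ran from 38 to 191, 192 to 362, 338 to 349 and 420 to 443. Litters are not given, and within each line the numbers of FG-3149 and IgG mice did not overlap. Neither the transgene nor the antibody can therefore be told apart from litter, breeding source or run of mouse numbers.

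Each value is a log2 ratio of a probe set to its own median over the 44 arrays, so 0 is that median and a difference of 1 is 2-fold. Such ratios carry no brightness, and levels of different genes cannot be compared. In whole tissue, fewer cells of a type and less RNA per cell cannot be told apart. A gene was called at an adjusted p under 0.05, from limma with a term for sex and with Benjamini-Hochberg adjustment across the 12394 genes. The atrial level, averaged from the log2 ratios of the atrial muscle markers Myl4, Myl7 and Sln, was over 4 on 10 arrays: 2 PKCe FG-3149, 2 PKCe IgG, 1 FVB FG-3149 and 5 FVB IgG. The 5 FVB IgG arrays were all from females. Fits without the 10 arrays therefore kept only replicates 5 and 10 as FVB IgG females. Their atrial levels were 3.82, just under the cut of 4, and -1.16. The lung markers Sftpc and Scgb1a1 were both over 3 on PKCe IgG replicates 9 and 10. The Gapdh difference is the log2 ratio of the 3′ Gapdh control probe set minus that of the 5′ set. It ran from 0.065 to 0.90 in PKCe IgG and from -0.18 to 0.11 in FVB IgG mice, with little overlap. In PKCe FG-3149 mice it ran from -0.14 to 0.22, and in FVB FG-3149 mice from -0.38 to 0.29. The Y-linked gene Uty had a log2 ratio of 3.63 on FVB FG-3149 replicate 11, which is labelled female, while no other array labelled female exceeded 0.023. Ccn2 was higher in PKCe than in FVB mice under FG-3149 (0.91 ± 0.20, SE, adjusted p = 0.00037) and under IgG (0.74 ± 0.23, adjusted p = 0.00756). The 2 probe sets of Prkce disagreed in sign (0.49 and -0.57 under IgG). Both carry the mouse symbol and the transgene is rabbit, so they were not read as a check of the labels.

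Phospholipases A2 free arachidonic acid from membrane phospholipids: Pla2g4a is the calcium-dependent cytosolic enzyme, and Pla2g5 is a secreted enzyme known to be expressed in heart. Cyclooxygenases, the constitutive Ptgs1 and the inducible Ptgs2, convert the acid to prostaglandin H2, from which Ptgds makes prostaglandin D2, Ptges makes prostaglandin E2 and Ptgis makes prostacyclin. Ptger4 is a receptor for prostaglandin E2 that couples to cyclic AMP. In the heart these lipids act on vessel tone, fibroblasts and inflammation.

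Of the 5 genes called in the same direction in every transgene comparison in which they were tested, 4 had a RefSeq promoter, and these are shown with that of the inducible Ptgs2 so that the sequence around their starts can be read beside the values. They are RefSeq windows of 300 bases on GRCm38.p6, the reference of C57BL/6J and not of FVB/N, from 250 bases before the start on, written 5′ to 3′ on the gene's strand. RefSeq promoters were matched for 7 of the 8 genes, Ptgis being without one. Where a gene has 2 starts, the first listed is shown. The windows are chr4:138863420-138863719 for Pla2g5, chr2:25469700-25469999 for Ptgds, chr1:149961241-149961540 for Pla2g4a and chr15:5244138-5244437 for Ptger4, all on the minus strand, and chr1:150099781-150100080 for Ptgs2 on the plus strand. Capitals mark repeats of a run of 16 bases in Pla2g5 and motif matches in Ptgds, Ptger4 and Ptgs2, and the Pla2g4a window has none.
Pla2g5: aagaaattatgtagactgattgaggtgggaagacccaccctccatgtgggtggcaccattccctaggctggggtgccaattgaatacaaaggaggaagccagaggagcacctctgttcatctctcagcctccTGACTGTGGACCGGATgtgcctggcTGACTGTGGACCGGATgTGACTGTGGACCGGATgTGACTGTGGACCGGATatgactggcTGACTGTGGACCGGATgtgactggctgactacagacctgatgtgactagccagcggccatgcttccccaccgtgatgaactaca
Ptgds: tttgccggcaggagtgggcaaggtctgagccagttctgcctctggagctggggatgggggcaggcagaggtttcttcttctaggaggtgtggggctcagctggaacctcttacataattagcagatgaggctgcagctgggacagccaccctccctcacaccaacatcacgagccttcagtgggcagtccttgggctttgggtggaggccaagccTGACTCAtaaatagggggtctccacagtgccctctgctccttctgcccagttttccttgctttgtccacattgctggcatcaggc
Pla2g4a: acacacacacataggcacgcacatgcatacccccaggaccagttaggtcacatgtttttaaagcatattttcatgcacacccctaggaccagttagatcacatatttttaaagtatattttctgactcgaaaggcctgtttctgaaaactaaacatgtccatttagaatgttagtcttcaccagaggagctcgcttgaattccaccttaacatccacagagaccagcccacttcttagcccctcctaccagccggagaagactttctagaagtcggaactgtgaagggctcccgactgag
Ptger4: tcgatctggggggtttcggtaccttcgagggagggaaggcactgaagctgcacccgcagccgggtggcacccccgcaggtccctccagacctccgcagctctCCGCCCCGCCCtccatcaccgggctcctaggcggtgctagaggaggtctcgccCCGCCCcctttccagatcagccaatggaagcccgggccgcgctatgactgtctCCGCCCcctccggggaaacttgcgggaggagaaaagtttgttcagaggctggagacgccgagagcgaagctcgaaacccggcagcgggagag
Ptgs2: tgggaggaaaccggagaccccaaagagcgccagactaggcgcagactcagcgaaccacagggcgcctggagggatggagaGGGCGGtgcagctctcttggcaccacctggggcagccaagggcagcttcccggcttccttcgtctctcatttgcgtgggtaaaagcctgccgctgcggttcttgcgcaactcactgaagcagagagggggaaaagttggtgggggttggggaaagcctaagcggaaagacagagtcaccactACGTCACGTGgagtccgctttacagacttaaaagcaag

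Motifs were searched on both strands of all 32851 promoters of this length. The AP-1 motif, searched as TGANTCA, was held by 7.81% of them. The core of the cyclic AMP response element was searched as TGACGT and held by 7.51%. The E-box was searched as CACGTG, with a share of 7.15%. The TATA box, searched with the letters TATAAA, had a share of 13.6%, and the GC box, with the letters GGGCGG, one of 35.7%. Ptgds held 1 AP-1 match, beginning 35 bases before the start. The Ptgs2 window held the response element core and the E-box, which overlap, and 1 GC box. The core and the E-box lie after the start, beginning at bases 13 and 17, and the GC box begins 170 bases before it. Ptger4 held 4 GC boxes, 2 of them overlapping. Neither the Pla2g5 nor the Pla2g4a window held any of these motifs. The run TGACTGTGGACCGGAT occurred 5 times in the Pla2g5 promoter, and 1 of the 32851 promoters held it. Unlike the motifs, the run was searched only as written and not on the opposite strand. That run was picked by its repetition after the sequence was read.

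Pla2g5 and Ptgds were lower in PKCe hearts, and Pla2g4a, Ptgis and Ptger4 were higher. The 2 probe sets of Ptgs2 and Ptges did not give the same answer. Comparing PKCe FG-3149 with FVB FG-3149 mice, 6 of the 7 genes were called, 4 higher and 2 lower, where 47% of all genes were called (21.5% higher, 25.5% lower). For PKCe IgG against FVB IgG, 5 of the 6 genes tested were called, 4 higher and 1 lower, where 42.2% of all genes were called (20.7% higher, 21.5% lower). Pla2g5 is given there without a test because its fall in that comparison was already known. The other genes were also chosen with earlier results of these arrays known, so the counts beside these shares are a description.

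**Figure D1:**
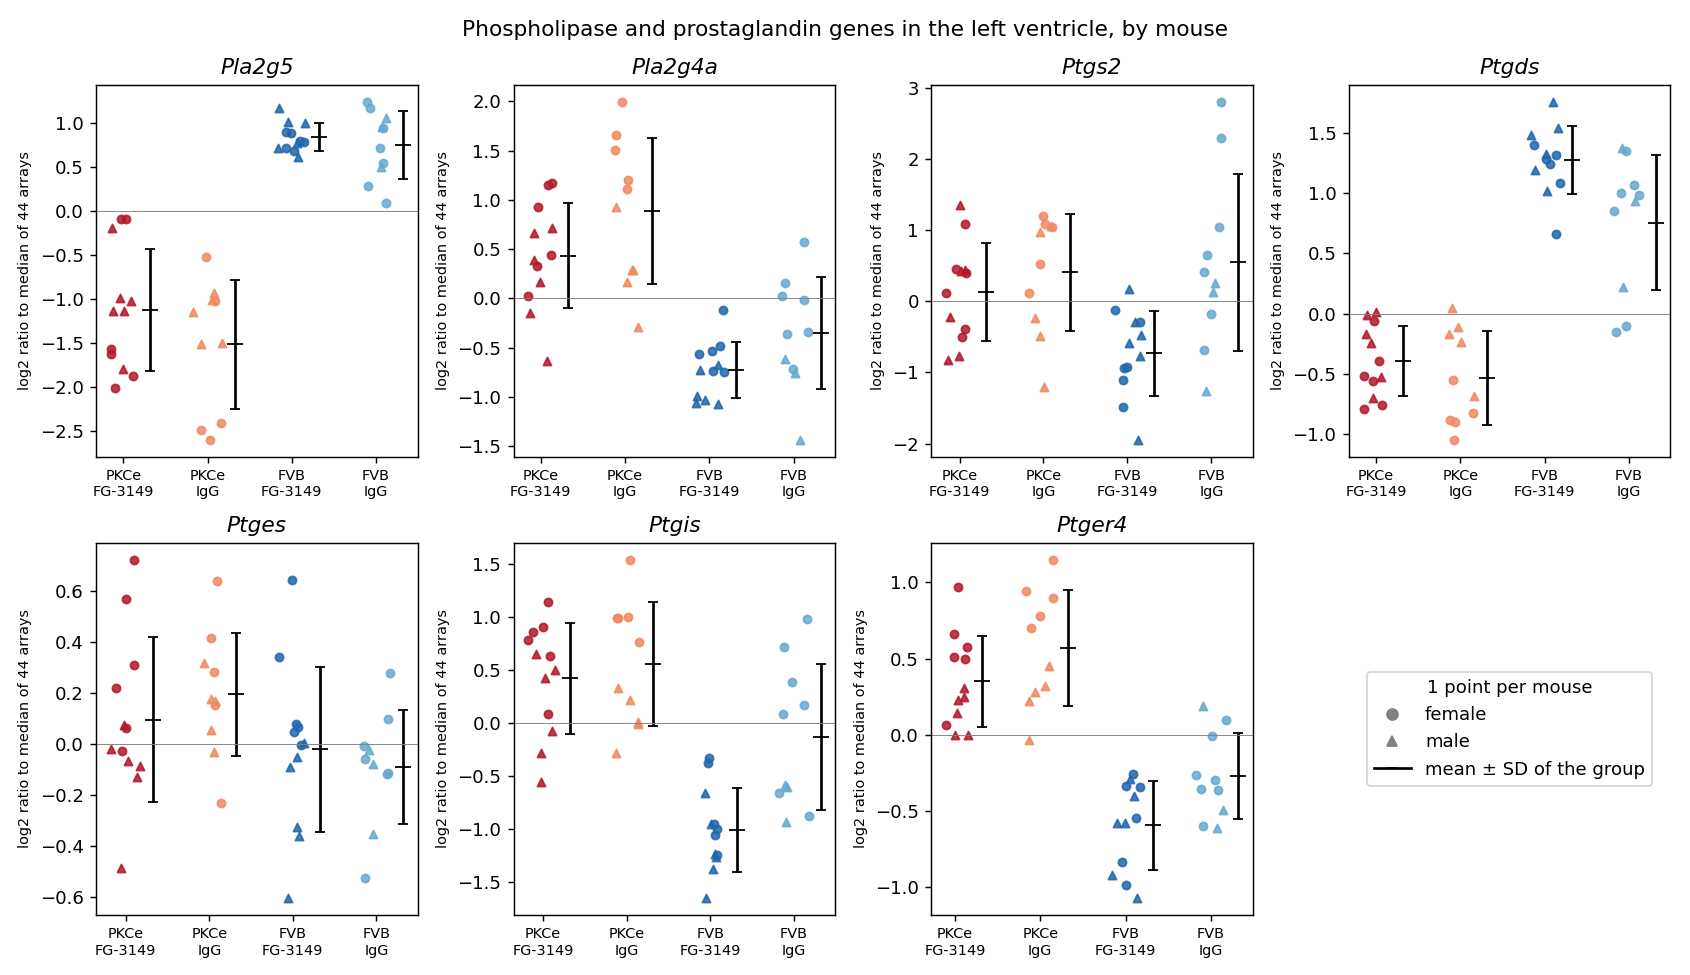
Log2 ratio of each gene to its median over 44 arrays (vertical axis) in the 4 groups (horizontal axis), with 1 point per mouse (circles female, triangles male) and the mean ± SD of the group. Pla2g5 lies below 0 on all 22 PKCe arrays and above 0 on all 22 FVB arrays, while Ptges overlaps in all groups.

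Pla2g5, the secreted phospholipase, had log2 ratios from -2.01 to -0.089 with a median of -1.14 in PKCe FG-3149 mice, against 0.61 to 1.17 with a median of 0.79 in FVB FG-3149 mice. The groups did not overlap, as was the case for 5.25% of all genes in this comparison. The difference was -1.97 ± 0.21 (SE), or 3.91-fold lower (adjusted p = 6.31e-10), the fourth largest fall of the 12394 genes. PKCe IgG mice ranged from -2.60 to -0.53 with a median of -1.33, and FVB IgG mice from 0.084 to 1.24 with a median of 0.83. These groups did not overlap either, where 4.38% of all genes had no overlap, and the difference of -2.31 ± 0.23 (4.97-fold lower) is a description. Spread among mice was wide in the transgenic groups (SD 0.69 in PKCe FG-3149 and 0.74 in PKCe IgG) and narrow in FVB FG-3149 mice (0.16). The highest transgenic values were on PKCe FG-3149 replicates 7 (-0.089), 9 (-0.098) and 10 (-0.19) and PKCe IgG replicate 6 (-0.53). Of these, replicates 7 and 9 and IgG replicate 6 had atrial marker levels of 5.50, 7.14 and 6.86, and replicate 10 had -0.092. The other PKCe array of high atrial level, IgG replicate 5 (5.92), had Pla2g5 at -1.51, below its group median. Without the 10 arrays of high atrial level, the difference under FG-3149 was -2.26 ± 0.17 (adjusted p = 4.48e-12).

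Pla2g4a, the cytosolic phospholipase, had log2 ratios from -0.63 to 1.17 with a median of 0.42 in PKCe FG-3149 mice, against -1.08 to -0.12 with a median of -0.73 in FVB FG-3149 mice. It rose by 1.16 ± 0.16 (2.24-fold, adjusted p = 2.3e-07), and 10 of 12 PKCe arrays exceeded the highest FVB FG-3149 value. In PKCe IgG mice it ran from -0.30 to 1.99 with a median of 1.02, and in FVB IgG mice from -1.43 to 0.57 with a median of -0.35. The rise there was 1.38 ± 0.18 (2.59-fold, adjusted p = 4.75e-08), and 6 of 10 PKCe arrays exceeded the highest FVB IgG value.

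Ptgs2, the inducible cyclooxygenase, gave no settled answer. Probe set 1417262_at ranged from -0.83 to 1.35 with a median of 0.26 in PKCe FG-3149 mice and from -1.94 to 0.17 with a median of -0.68 in FVB FG-3149 mice, and the difference was 0.86 ± 0.33 (adjusted p = 0.031). Its other set, 1417263_at, gave -0.057 ± 0.12, and the mean of both sets gave 0.40 (adjusted p = 0.114). The call of the first set was lost without any 1 of 5 of the 24 arrays, FVB FG-3149 replicates 7, 9 and 10 and PKCe FG-3149 replicates 5 and 9 (0.73 to 0.96, highest adjusted p = 0.0624). Under IgG the first set ran from -1.20 to 1.20 with a median of 0.75 in PKCe mice and from -1.26 to 2.80 with a median of 0.33 in FVB mice. These groups overlapped throughout, and the difference was -0.057 ± 0.37 (adjusted p = 0.909, 95% interval -0.79 to 0.68). The other set gave -0.29 ± 0.13 (adjusted over all probe sets, p = 0.0745). Across the 44 arrays the 2 sets had r = 0.66, and r = 0.42 without FVB IgG replicates 2 and 3, the arrays farthest from the median.

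Ptgds, the prostaglandin D synthase, ranged from -0.79 to 0.011 with a median of -0.46 in PKCe FG-3149 mice, against 0.66 to 1.76 with a median of 1.30 in FVB FG-3149 mice. No arrays overlapped, and the gene fell by 1.67 ± 0.14 (3.19-fold, adjusted p = 2.24e-12), the fifth largest fall of all genes. In PKCe IgG mice it ran from -1.05 to 0.048 with a median of -0.62, and in FVB IgG mice from -0.15 to 1.37 with a median of 0.96. That fall was 1.35 ± 0.16 (2.55-fold, adjusted p = 3.22e-09), and 8 of 10 PKCe arrays lay below every FVB IgG array. The overlap came from FVB IgG replicates 2 (-0.15) and 3 (-0.10), with atrial marker levels of 8.47 and 8.14. Its other probe set, 1423859_a_at, gave -1.20 ± 0.11 and -0.97 ± 0.12 in the FG-3149 and IgG comparisons and had r = 0.99 with the first.

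Ptges, the inducible prostaglandin E synthase, moved little. Probe set 1449450_at rose by 0.34 ± 0.11 under IgG (adjusted p = 0.0105), with medians of 0.17 (-0.23 to 0.64) in PKCe IgG and -0.067 (-0.53 to 0.28) in FVB IgG mice. The ranges overlapped, and 4 of 10 PKCe arrays exceeded the highest FVB IgG value. Without the sex term the adjusted p was 0.0671, without the arrays of high atrial level it was 0.116, and it was 0.108 in females alone and 0.162 in males alone. Without the arrays of high lung markers the call was kept (0.43 ± 0.11, adjusted p = 0.00193). Under FG-3149 the difference was 0.12 ± 0.099 (adjusted p = 0.331). Its other set, 1449449_at, gave -0.070 ± 0.056 under FG-3149 and 0.096 ± 0.062 under IgG, and the sets had r = -0.18. The mean of both sets gave 0.22 ± 0.057 under IgG (adjusted p = 0.00176) and 0.023 ± 0.051 under FG-3149 (adjusted p = 0.721).

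Ptgis, the prostacyclin synthase, ranged from -0.56 to 1.14 with a median of 0.57 in PKCe FG-3149 mice, against -1.65 to -0.33 with a median of -1.02 in FVB FG-3149 mice. It rose by 1.43 ± 0.17 (2.69-fold, adjusted p = 6.07e-09), and 11 of 12 PKCe arrays exceeded the highest FVB FG-3149 value. Under IgG its range was -0.28 to 1.54 with a median of 0.55 in PKCe mice and -0.93 to 0.98 with a median of -0.25 in FVB mice. The groups overlapped widely, and the rise was 0.82 ± 0.19 (1.77-fold, adjusted p = 0.000417). Without the arrays of high atrial level it was 1.20 ± 0.21 (adjusted p = 2.91e-05).

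Ptger4, the prostaglandin E2 receptor, ranged from -0.00094 to 0.97 with a median of 0.28 in PKCe FG-3149 mice, against -1.07 to -0.26 with a median of -0.56 in FVB FG-3149 mice. No arrays overlapped, and the rise was 0.95 ± 0.11 (1.93-fold, adjusted p = 3.62e-09). In PKCe IgG mice it ran from -0.036 to 1.15 with a median of 0.57, and in FVB IgG mice from -0.61 to 0.19 with a median of -0.33. The rise was 0.90 ± 0.12 (1.87-fold, adjusted p = 7.44e-08), and 9 of 10 PKCe arrays exceeded the highest FVB IgG value. Its other probe set, 1421073_a_at, gave 0.82 ± 0.14 and 0.75 ± 0.15 in the FG-3149 and IgG comparisons.

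Cell type markers were read in the same transgene comparisons, so those that rose or fell were higher or lower in PKCe than in FVB mice. Of 7 fibroblast markers, 7 rose under FG-3149 and 6 under IgG, where 21.5% and 20.7% of all genes rose. The median differences were 0.69 and 0.58. Their mean level ran from -0.039 to 0.76 in PKCe FG-3149, 0.12 to 0.89 in PKCe IgG, -0.81 to -0.27 in FVB FG-3149 and -0.71 to 0.30 in FVB IgG mice. Of 8 macrophage markers, 5 rose under FG-3149 and 1 under IgG. Of 8 markers of ventricular cardiomyocytes, 4 fell under FG-3149 and 3 under IgG, where 25.5% and 21.5% of all genes fell. Their median differences were -0.13 and -0.060, against -0.048 and -0.046 over all genes, and their mean levels were -0.28 to 0.0018 in PKCe FG-3149, -0.31 to 0.022 in PKCe IgG, 0.051 to 0.17 in FVB FG-3149 and -0.34 to 0.24 in FVB IgG mice. All 4 adipocyte markers fell under IgG (median -1.22) and 0 of 4 were called under FG-3149. Without the arrays of high atrial level, 2 of 4 fell under IgG (median -0.63) and 1 under FG-3149. Under IgG, 2 of 5 atrial and 2 of 5 smooth muscle markers fell, and 0 of either without those arrays. The part of these cells in the results was not tested.

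**Figure D2:**
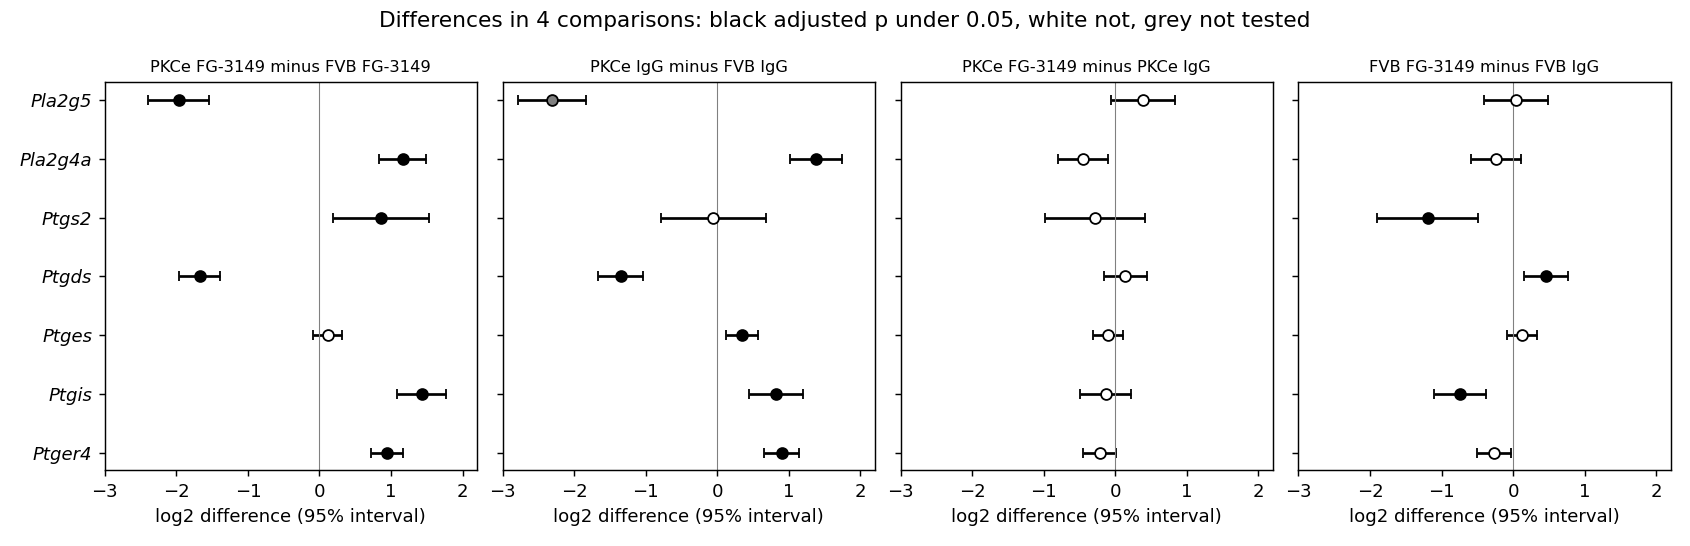
Log2 differences (horizontal axis) of 7 genes with 95% intervals in 4 comparisons, where black points had an adjusted p under 0.05, white points did not and the grey point was not tested. Pla2g5 and Ptgds lie left of 0 and Pla2g4a, Ptgis and Ptger4 right of 0 in both transgene comparisons, while no gene was called for FG-3149 in PKCe mice.

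FG-3149 against IgG within a line asks whether blocking CTGF changed these genes, and antibody and run of mouse numbers cannot be told apart. In PKCe mice 0 of the 7 genes were called by limma, 1 having an unadjusted p under 0.05, where 8.82% of all genes were called. That gene was Pla2g4a, with a difference of -0.45 ± 0.17 (unadjusted p = 0.0119, adjusted p = 0.0933, 95% interval -0.80 to -0.11), and 10 of 12 antibody arrays lay below the PKCe IgG median. Leaving out PKCe IgG replicate 4 gave -0.55 (adjusted p = 0.0322), and females alone gave -0.82 ± 0.22 (adjusted p = 0.0271). Males alone gave -0.085 ± 0.23 (adjusted p = 0.992), and leaving out the 2 arrays of high lung markers gave -0.36 ± 0.18 (adjusted p = 0.319). Pla2g5 differed by 0.39 ± 0.22 (adjusted p = 0.317), with an interval of -0.060 to 0.83. For Ptger4 the difference was -0.22 ± 0.11 (adjusted p = 0.257) and at its other probe set 0.099 ± 0.14. The differences of Ptgds (0.14), Ptgis (-0.13), Ptges (-0.100) and Ptgs2 (-0.28) each had a 95% interval that included 0.

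In FVB mice 3 of the 7 genes were called for FG-3149, 1 higher and 2 lower, where 9% of all genes were called (4.43% higher, 4.57% lower). Ptgis fell by 0.74 ± 0.18 (adjusted p = 0.00623), with 9 of 12 antibody arrays below every FVB IgG array. Ptgs2 fell by 1.19 ± 0.35 at 1417262_at (adjusted p = 0.0248), and by 0.27 ± 0.13 at 1417263_at (adjusted over all probe sets, p = 0.192). The mean of both sets gave -0.73 ± 0.23 (adjusted p = 0.0367). Ptgds rose by 0.46 ± 0.15 at 1423860_at (adjusted p = 0.0453). Its other set gave 0.25 ± 0.12 (adjusted over all probe sets, p = 0.209), and the mean of both gave 0.36 (adjusted p = 0.0911). The call was lost without any 1 of 13 of the 22 arrays (0.36 to 0.53 and adjusted p 0.0137 to 0.129 over all 22). Replicate 11 of FVB FG-3149, of high Uty, is among them (adjusted p = 0.0741). The atrial level averaged 4.28 in FVB IgG mice and -0.55 in FVB FG-3149 mice, and 4 of 5 atrial markers and 3 of 4 adipocyte markers were lower in the antibody group. Without the 10 arrays of high atrial level, none of the 3 was called: Ptgis was -0.37 ± 0.20 (adjusted p = 0.49), Ptgs2 -0.42 ± 0.36 (adjusted p = 0.767) and Ptgds 0.30 ± 0.17 (adjusted p = 0.528). Those arrays include 5 females of the FVB IgG group. Over all 12394 genes, 217 were called without them, against 1116 with all arrays. Ptgs2 was highest on FVB IgG replicates 2 (2.80) and 3 (2.29), and leaving out either gave -0.97 (adjusted p = 0.0716) or -1.02 (adjusted p = 0.0615). Leaving out FVB FG-3149 replicate 7 also ended its call (-1.09, adjusted p = 0.0513). The test of whether the antibody's effect differed between the lines called 0 of the 7 genes, where 3.86% of all genes were called. The unadjusted p was under 0.05 for 1 of them, Ptgis (0.61 ± 0.25, adjusted p = 0.198).

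**Figure D3:**
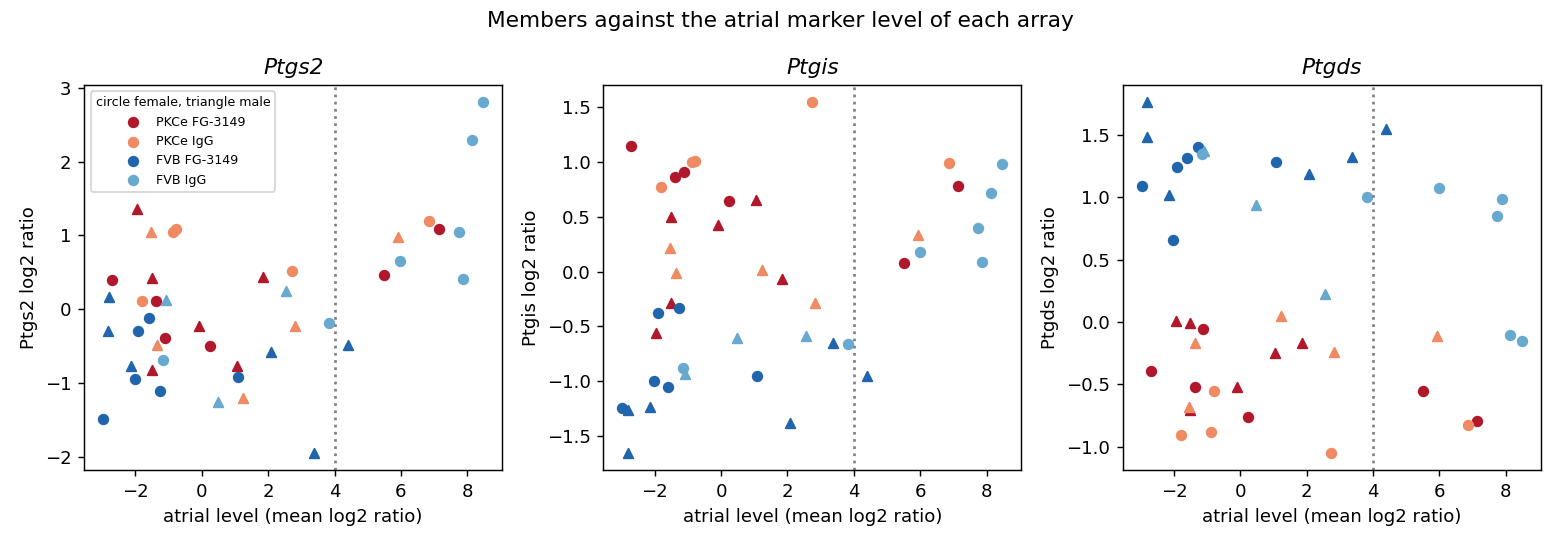
Log2 ratios of Ptgs2, Ptgis and Ptgds (vertical axes) against the atrial level, the average log2 ratio of Myl4, Myl7 and Sln (horizontal axis), with 1 point per mouse coloured by group and a dotted line at 4. The 5 FVB IgG arrays right of the line include the 2 highest Ptgs2 values (2.80 and 2.29) and the 2 lowest Ptgds values of their group (-0.15 and -0.10).

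Females and males differed for 5 of the 7 genes, 4 higher and 1 lower in females, where 15.8% of all genes were called (8.67% higher, 7.12% lower). Pla2g4a was higher in females by 0.70 ± 0.12 (adjusted p = 0.000112), Ptgis by 0.68 ± 0.13 (adjusted p = 0.000264), Ptger4 by 0.30 ± 0.082 (adjusted p = 0.0107) and Ptges by 0.29 ± 0.074 (adjusted p = 0.00621). These values are pooled over the 4 groups. For Ptger4, 12 of 24 females exceeded the male median. Its PKCe against FVB difference was 1.15 in females alone and 0.55 in males alone under IgG, and 1.10 and 0.79 under FG-3149. Ptges averaged 0.31 in females and -0.12 in males of PKCe FG-3149, and 0.25 and 0.14 in PKCe IgG. The other probe set of Ptges gave -0.030 ± 0.042, and without the arrays of high atrial level its first set had an adjusted p of 0.053. The mean of both Ptges sets gave 0.13 ± 0.039 (adjusted p = 0.0177). The other set of Ptger4 gave 0.19 ± 0.10 (adjusted over all probe sets, p = 0.179), and quantile normalization gave 0.20 at the first (adjusted p = 0.0537). The mean of both Ptger4 sets gave 0.25 ± 0.087 (adjusted p = 0.0427). Ptgds was lower in females by 0.30 ± 0.11 (adjusted p = 0.0487), and its other set by 0.20 ± 0.084 (adjusted over all probe sets, p = 0.0948). The mean of both Ptgds sets gave -0.25 ± 0.095 (adjusted p = 0.0583). The call of the first set was lost when the probe sets were adjusted together (p = 0.0503), without the 2 arrays of high lung markers (p = 0.108) and without any 1 of 27 of the 44 arrays (-0.36 to -0.27, highest adjusted p = 0.0884). Without FVB FG-3149 replicate 11 the number of genes called for sex was still 5 of 7. Pla2g5 differed by -0.23 ± 0.16 (adjusted p = 0.302), and by -0.55 ± 0.13 (adjusted p = 0.00751) without the arrays of high atrial level.

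In PKCe IgG mice the sexes did not overlap for 3 of the 7 genes, where 15.1% of all genes had no overlap. Pla2g4a ran from 1.11 to 1.99 in the 5 females and from -0.30 to 0.93 in the 5 males. Ptgis ran from 0.76 to 1.54 in females and from -0.28 to 0.33 in males, and Ptger4 from 0.70 to 1.15 in females and from -0.036 to 0.45 in males. Replicates 9 and 10, of high lung markers, are among these females, and replicate 9 had the highest Ptgis and Ptger4 values. Without both, the lowest female value still exceeded the highest male one for the 3 genes (1.11 against 0.93, 0.99 against 0.33 and 0.70 against 0.45). At the other probe set of Ptger4 the sexes overlapped. These males had mouse numbers 192 to 196 and these females 322 to 362, so sex and run of numbers cannot be told apart within the group. The tests of whether the transgene's effect under IgG, or the antibody's effect in PKCe mice, differed between the sexes called 0 of the 7 genes each, where 0.0807% and 0.0161% of all genes were called. Each had 1 gene with an unadjusted p under 0.05: Ptger4 in the transgene test (0.60 ± 0.23, adjusted p = 0.498) and Pla2g4a in the antibody test (-0.73 ± 0.33, adjusted p = 0.559). The FVB IgG group held 3 males.

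**Figure D4:**
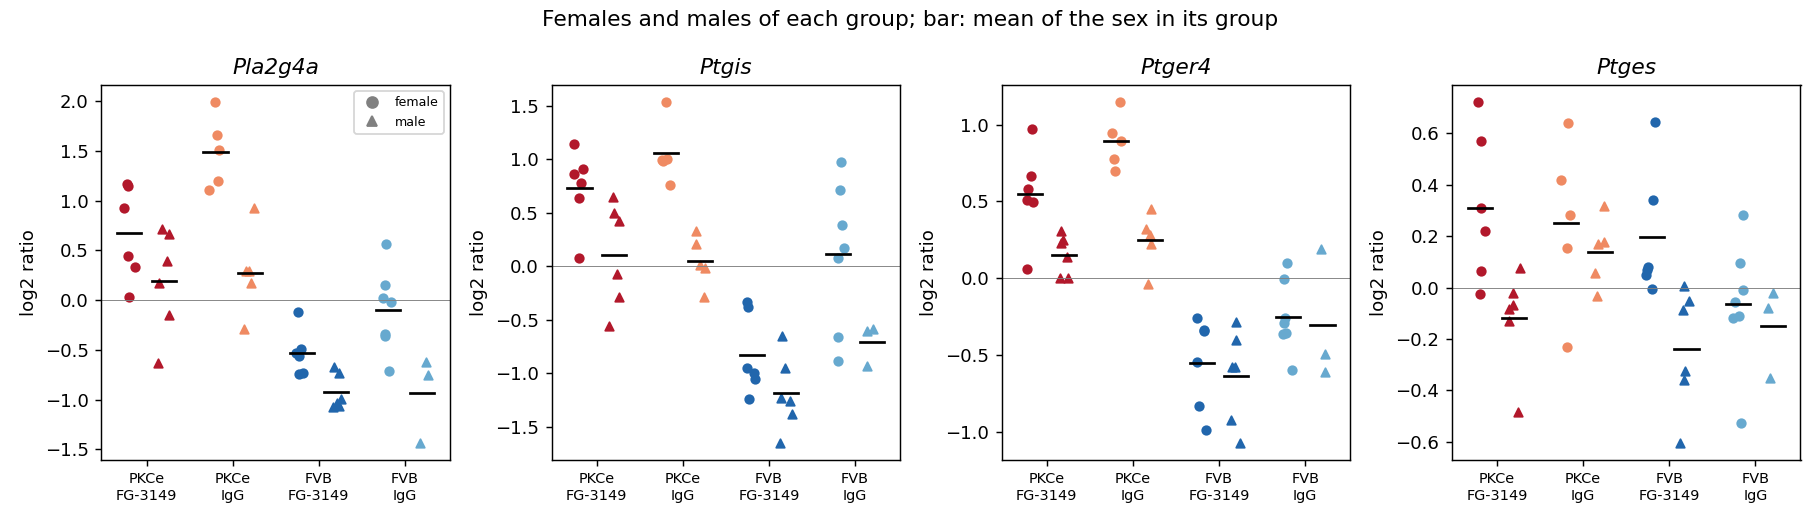
Log2 ratios (vertical axis) of Pla2g4a, Ptgis, Ptger4 and Ptges in females (circles, left) and males (triangles, right) of each group, with a bar at the mean of each sex. PKCe IgG females lie above PKCe IgG males without overlap for Pla2g4a, Ptgis and Ptger4.

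**Figure D5:**
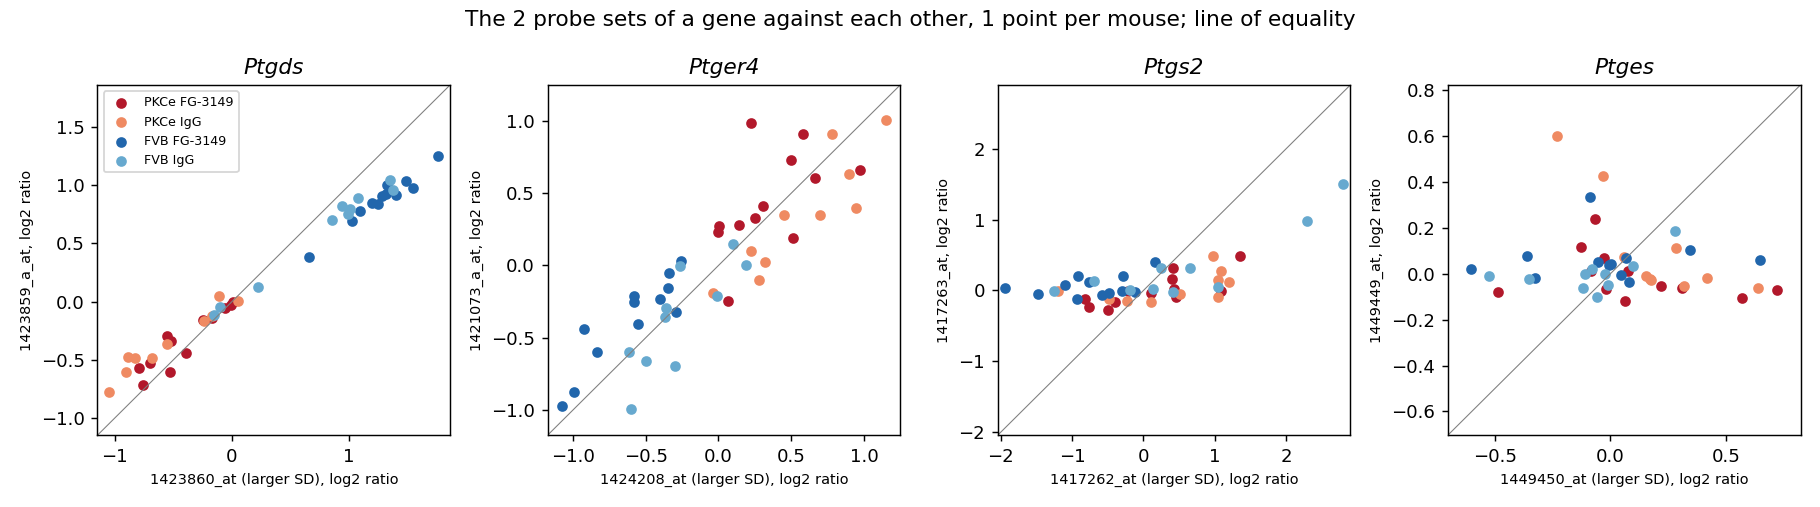
Log2 ratio at the second probe set (vertical axis) against the one with the larger SD (horizontal axis) for the 4 genes with 2 sets, with 1 point per mouse and a line of equality. The sets rise together for Ptgds (r = 0.99) and Ptger4 (r = 0.87), less so for Ptgs2 (r = 0.66) and not for Ptges (r = -0.18).

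Other genes of the arachidonic acid pathways were read from 6 lists, of which 55 of 66 genes were measured. They were compared between PKCe and FVB mice, so those that rose or fell were higher or lower in PKCe mice given the same treatment. Over all genes, 21.5% rose and 25.5% fell under FG-3149, and 20.7% rose and 21.5% fell under IgG. The small lists are described beside these shares without a test. Of 15 phospholipases A2 and related genes, 3 rose and 7 fell under FG-3149 and 1 rose and 4 fell under IgG, with medians of -0.12 and -0.071 against -0.048 and -0.046 over all genes. Pla2g12a, a secreted phospholipase, fell by 0.72 ± 0.070 and 0.81 ± 0.077 in the FG-3149 and IgG comparisons, and Pla2g2c by 0.41 ± 0.058 and 0.54 ± 0.065. Pla2g15, the lysosomal enzyme, rose by 0.37 in the FG-3149 comparison. Of 6 other prostanoid synthases, 0 rose and 2 fell under FG-3149, and 1 rose and 1 fell under IgG. Cbr1, a carbonyl reductase that can reduce prostaglandin E2, fell by 0.27 ± 0.051 and 0.52 ± 0.057.

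In the same comparisons of PKCe with FVB mice, 1 of 8 other prostanoid receptors rose and 1 fell under FG-3149. Under IgG, 1 rose and 2 fell. Ptgir, the receptor of the prostacyclin that Ptgis makes, rose by 0.56 ± 0.076 (adjusted p = 1.17e-07) and 0.66 ± 0.084 (adjusted p = 2.13e-08). Ptgfr fell by 1.35 ± 0.44 under IgG (adjusted p = 0.0118), and by 0.30 ± 0.26 (adjusted p = 0.373) without the arrays of high atrial level. Of 4 genes of transport and breakdown, 1 rose and 1 fell under FG-3149, and 0 rose and 1 fell under IgG. Hpgd, which starts prostaglandin breakdown, rose by 0.52 ± 0.18 under FG-3149 (adjusted p = 0.0203), and Ptgr2 fell by 0.47 ± 0.14 and 0.60 ± 0.16 in the FG-3149 and IgG comparisons. The lipoxygenase list had 2 of 12 higher and 3 lower under FG-3149, and 1 of each under IgG. The epoxygenase list had 2 of 10 higher and 3 lower under FG-3149, and 1 of each under IgG.

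For FG-3149 in PKCe mice, Cbr1 rose by 0.18 ± 0.054 (adjusted p = 0.0296), Ephx1, an epoxide hydrolase, rose by 0.33 ± 0.11 (adjusted p = 0.0425) and Ptgr1, a prostaglandin reductase, fell by 0.43 ± 0.11 (adjusted p = 0.00766). No other gene of the lists was called there, where 8.82% of all genes were called. Without the arrays of high atrial level, 1 of the 55 genes, Ptgr1, was called (-0.42 ± 0.10, adjusted p = 0.0195), where 528 of all 12394 genes were called. The antibody's difference between the lines was called for Ephx1 alone, at 0.52 ± 0.15 (adjusted p = 0.0404), where 3.86% of all genes were called. In FVB mice the antibody group was lower for the prostaglandin receptors Ptgfr (-1.31 ± 0.42, adjusted p = 0.0412) and Ptger3 (-0.63 ± 0.21, adjusted p = 0.047) and the transporter Slco2a1 (-0.60 ± 0.19, adjusted p = 0.0376). It was higher for Pla2g4f, Prxl2b and Ptges2, by 0.25, 0.31 and 0.23 with adjusted p-values of 0.0404, 0.014 and 0.0359. No other gene of the lists was called in FVB mice, where 9% of all genes were called. Without the arrays of high atrial level 0 of the 55 were called in FVB mice, where 217 of all 12394 genes were called.

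The genes whose pattern over the 44 arrays was most like each of the 7 were found by Pearson's r, given as a description because arrays share groups and tissue content. For Pla2g5 these were Ces1d, a carboxylesterase (r = 0.96, and 0.86 after group and sex were taken out), the water channel Aqp4 (0.95 and 0.81) and Gstk1 (0.93 and 0.71). Ptgds was most like Bdh1 (0.92 and 0.60). Ptgis was most like Pcolce2 (0.96 and 0.86) and Pla2g4a like Ikbip (0.97 and 0.89) and Mfap5, a microfibril protein (0.94 and 0.69). Ptger4 was most like Igfbp7 (0.93 and 0.66) and the collagen gene Col16a1 (0.92 and 0.64). For Ptges no gene passed r = 0.55, that of Tlcd4. Ptgs2 was most like Egr2 (0.78 and 0.82), followed by Pdlim3 (0.78 and 0.68) and Ccn2 (0.76 and 0.74). Among the genes themselves, Ptgis and Pla2g4a had r = 0.87, and 0.61 after group and sex were taken out. Pla2g5 and Ptgds had r = 0.77, and -0.21 after group and sex were taken out.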

How the data were processed

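RNA from 44 left ventricles was hybridized to 1 array each. The authors summarized the array files with GCRMA (version not given in the sources used here) and, in GeneSpring GX 7.3.1, scaled every probe set to its median, per the series design text. The deposited values are linear ratios, and every probe set had a median of 1 over the 44 arrays on checking. No brightness or detection call was analysed, so precision rests on the number of arrays. Probe sets were named from the platform annotation: 20393 had 1 gene, 691 several and 1606 none.

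Ratios were analysed as log2. The test was limma 3.58.1 in R 4.3.3 on 12394 genes, with 4 groups and sex in 1 fit of all arrays. Tests by sex used 8 means of group and sex. The 8 genes and the lists of pathway genes and markers were chosen with earlier results of these data known. Named were the 8 genes at every probe set, and Ccn2 and Prkce once. Other names were drawn from the up to 3 called genes of lowest p per pathway list and comparison, and from the 3 genes of highest r per gene. Not all of those are named in the text. Alternatives changed the normalization, the probe set of a gene, the covariates, the fit and the arrays included. Promoters were read with Python. Mice are the replicates.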

Additional observations from a re-analysis of the deposited data

Results flagged for a closer look

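The probe set 1449449_at of Ptges had its highest FVB IgG value, 0.187, on replicate 4, farther from the other arrays of its group than Dixon's 95% limit. It was 1 of 22 groups of a probe set looked at, and chance gives about 1 in 20. These were the IgG groups of the 11 probe sets. The FG-3149 groups, of 12 mice each, were not looked at, because the limits used went up to 10 arrays.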

How the results depend on the processing

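Differences between 2 groups were refitted under 16 alternatives, antibody by line under 15, sex under 12 and the tests by sex under 6, since the others could not be made or were not run there, and all without each array of the groups in turn. The differences between PKCe and FVB mice of Pla2g5, Ptgds, Ptgis, Pla2g4a and Ptger4 kept their direction, and those tested their call, in all of these.

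Of the 7 genes, those called for FG-3149 in FVB mice numbered 3, but 1 with the replicate block or with only the 2 groups in the fit, and 0 in males, without the arrays of high atrial level or with that level as a covariate. They numbered 2 after quantile normalization, with the mean of the probe sets, in females or with the Gapdh difference as a covariate. For PKCe against FVB under IgG, 5 were called, but 4 without the sex term, in females, in males or without the arrays of high atrial level. Under FG-3149, 6 were called, but 5 with the mean of the probe sets, in females or in males. For FG-3149 in PKCe mice, 1 was called in females. For sex, 5 were called, but 3 after quantile normalization. With a robust variance or without the genes of lowest SD 5 remained, and the other alternatives gave 4. Same-numbered arrays of different groups had a mean r of -0.0090 over 62 pairs (-0.30 to 0.30), so the numbers did not pair the mice, and the block is given as a check.

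Counts over all genes are listed where they moved from the main fit by more than a factor of 1.5. Calls for FG-3149 in PKCe mice numbered 726 after quantile normalization, 57 in males, 528 without the arrays of high atrial level, 440 without those of high lung markers and 480 with the Gapdh difference. For FG-3149 in FVB mice they were 406 in females, 57 in males, 217 without the high atrial arrays and 266 with the atrial covariate. The antibody by line test gave 110 in females, 37 in males, 127 without the high atrial arrays and 725 with the Gapdh difference. In males, 2169 were called for PKCe against FVB under IgG and 2829 under FG-3149. Short of that factor, the Gapdh difference as a covariate gave 3881 for PKCe against FVB under IgG, against 5235 in the main fit. For sex, 1174 were called without the high atrial arrays. Transgene by sex gave 4 after quantile normalization, 343 without the high atrial arrays and 20 with the atrial covariate, and antibody by sex gave 1, 5 and 4. The 343 rest on replicates 5 and 10 as the only FVB IgG females.

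Leaving out 1 array gave 4732 to 5761 genes for PKCe against FVB under IgG, 5201 to 6116 under FG-3149, 751 to 1158 for FG-3149 in PKCe, 741 to 1484 in FVB, 351 to 521 for antibody by line, 1642 to 2452 for sex, 7 to 17 for transgene by sex and 2 to 6 for antibody by sex. The lowest FVB count was without FVB IgG replicate 2. Of the 7 genes, 5 were called throughout for PKCe against FVB under IgG, and 5 to 6 under FG-3149. For FG-3149 in PKCe mice 0 to 1 were called, with 1 to 3 in FVB, 4 to 5 for sex and 0 in the other tests.

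These 26 differences, none called, changed sign. Only the 2 groups in the fit: Ptgs2 0.054 (PKCe IgG against FVB IgG). Quantile normalization between arrays: Ptgs2 0.091 (PKCe IgG against FVB IgG), Ptgds -0.014 (FG-3149 in PKCe), Ptgis 0.041 (FG-3149 in PKCe), Pla2g5 -0.26 (antibody by line), Pla2g5 0.37 (transgene by sex), Ptgis -0.11 (transgene by sex), Ptges -0.12 (transgene by sex), Pla2g4a -0.044 (transgene by sex), Pla2g5 -0.11 (antibody by sex). Females alone: Ptges 0.057 (FG-3149 in PKCe), Ptger4 -0.049 (antibody by line). Males alone: Ptgs2 0.31 (PKCe IgG against FVB IgG), Ptgds -0.043 (FG-3149 in PKCe), Ptgs2 0.044 (FG-3149 in PKCe), Ptgis 0.057 (FG-3149 in PKCe), Ptges -0.087 (FG-3149 in FVB), Pla2g4a 0.0096 (FG-3149 in FVB). Without the arrays of high atrial level: Ptgs2 0.57 (PKCe IgG against FVB IgG), Pla2g5 -0.049 (antibody by line), Ptgs2 1.05 (transgene by sex). Atrial level as a covariate: Ptgs2 0.20 (PKCe IgG against FVB IgG), Pla2g5 0.074 (transgene by sex), Ptgs2 0.0088 (transgene by sex). Without the arrays of high lung markers: Ptgs2 0.029 (PKCe IgG against FVB IgG). Gapdh difference as a covariate: Ptgs2 0.075 (PKCe IgG against FVB IgG). The cause was not tested.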
